A study of Mus musculus with 12 samples.

Results

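The genes described here are 10 that make, break down or sense prostaglandins and leukotrienes. They are the cyclooxygenases Ptgs1 and Ptgs2, the synthases Ptges and Ptgds, the prostaglandin-degrading enzyme Hpgd, the leukotriene genes Alox5, Alox5ap and Ltb4r1, and the lipoxygenases Alox12 and Alox15. They were listed by symbol and not by a cut on their values, though with earlier results of these data known. All 10 were among the 18505 genes measured. All 10 also passed a filter on low values (a mean of at least 0.1 FPKM over the 12 samples), which 15288 genes passed. RNA of back skin from male wild-type BALB/c mice was sequenced at day 10 in 3 groups of 4 samples. Control mice received petroleum jelly on the shaved back. IMQ + NS mice received imiquimod (IMQ) cream, which activates a Toll-like receptor and causes psoriasis-like inflammation, followed by a normal saline cover. IMQ + BZLF mice received the same cream followed by an external application of Banzhilian formula (BZLF), an extract of 9 medicinal materials. Per the study's methods, treatment was daily, and in both IMQ groups the cover was fixed with gauze and a polyurethane film. No such dressing is described for controls. Effects of cream and dressing therefore cannot be told apart in the comparisons with control. The labels do not give the dose of BZLF of the sequenced samples or say how many animals each sample holds, so p-values measure the spread between these samples. IMQ-treated skin is an acute inflammation model in shaved skin, with no genetic change. Levels are in FPKM, which are fragment counts scaled by transcript length and by library size.

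Prostaglandins and leukotrienes are short-lived lipid signals made from arachidonic acid, which phospholipases A2 free from cell membranes. Cyclooxygenases turn arachidonic acid into prostaglandin H2, and terminal synthases turn that into prostaglandin E2, prostaglandin D2 and other prostanoids. On the leukotriene branch, 5-lipoxygenase (Alox5) works with its partner protein Alox5ap on the nuclear membrane, and the resulting leukotriene B4 draws neutrophils through the receptor Ltb4r1. In skin, prostaglandin E2 is known for blood vessel widening and itch, and 12-lipoxygenases are known for roles in the epidermis.

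The 250 bases before the transcription start of Ptgs2 and Ltb4r1 are shown because these were the members that stood highest in IMQ + NS and near the control level in IMQ + BZLF. The sequences are from RefSeq on GRCm38.p6, which is the assembly also called mm10. Both lie on the plus strand, at chr1:150099781-150100030 for Ptgs2 and chr14:55765712-55765961 for Ltb4r1. Capitals mark matches to the motifs listed after the sequences, on either strand.
Ptgs2: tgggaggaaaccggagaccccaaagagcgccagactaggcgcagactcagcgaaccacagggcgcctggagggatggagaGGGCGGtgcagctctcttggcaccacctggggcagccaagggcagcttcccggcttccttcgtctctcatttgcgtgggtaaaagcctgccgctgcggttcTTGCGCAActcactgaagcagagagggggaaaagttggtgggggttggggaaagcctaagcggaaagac
Ltb4r1: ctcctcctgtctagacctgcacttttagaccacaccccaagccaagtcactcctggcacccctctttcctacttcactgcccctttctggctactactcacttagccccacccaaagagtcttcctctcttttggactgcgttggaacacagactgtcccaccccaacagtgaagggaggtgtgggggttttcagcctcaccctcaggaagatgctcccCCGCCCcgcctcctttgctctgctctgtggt

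The Ptgs2 window held a C/EBP type motif (TTGCNNAA) 69 to 62 bases before the start, and 9.56% of the 32851 promoters in the RefSeq table held that motif in the same window. It also held a GC box (GGGCGG), which 32.7% of promoters held. The Ltb4r1 window held the GC box alone, on the opposite strand, 31 to 26 bases before the start. A promoter entry was matched for 8 members, and Alox5ap and Alox15 had none. The Ptges window, at chr2:30903298-30903547, lay inside the gene span given below, as did those of Ptgs1 and Ptgds. For these members the start used was therefore not the outer end of the span. The Alox12 window lay partly inside its span. The GC box was in 6 of the 8 windows, those of Ptgs2, Ptges, Hpgd, Alox5, Alox12 and Ltb4r1. An AP-1 motif (TGACTCA) was in 1 window, that of Ptgds, against 4.46% of all promoters. The TATA box (TATAAA) was in 0 of the 8, against 12.4% of all promoters. The core of the cAMP response element (TGACGT) was in 0, against 6.47%, and so were an E-box (CACGTG), against 6.02%, and an NF-kappa B type motif, against 4.11%. Only the 250 bases before the start used were searched, so a motif after that start or further upstream would be missed. A count of 0 therefore does not mean that a promoter lacks the motif. These matches describe letters in a window and say nothing of binding.

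FPKM summed to between 444660 and 506622 per sample, with 16649 to 16941 genes above 0. The steps between low values put the samples' relative depth between 1 and 1.07, so no group was sequenced much more deeply than another. Control replicate 2 stood apart. Its correlation with the mean of the other 3 controls was 0.957 (log2 scale, across genes), where the other 11 samples had 0.986 to 0.993 within their groups. Its 7 hair follicle markers summed to 1590 FPKM, against 15.9 to 45.7 in the other controls. Seminal vesicle genes, which are not genes of skin, summed to 40.8 FPKM in control replicate 2 and 39.9 in IMQ + BZLF replicate 2, and to at most 0.0441 elsewhere. Results that move by over 1.5 times without such a library are given with and without it. Keratinocyte markers were detected in all samples, at 1849 to 2965 FPKM in controls. In bulk skin, fewer cells of a type and less RNA per cell cannot be told apart.

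Between IMQ + NS and control, 2 members rose (Ptgs2 and Ptgds), 3 fell (Ptgs1, Hpgd and Alox5) and 5 were not called. A gene is called here when its adjusted p by limma is below 0.05 and its log2 fold change is past 1 in size. Over the 15288 genes tested, 11.4% were called higher and 11.0% lower, so the shares of members called were 2 of 10 and 3 of 10 beside a background of about 1 in 10 each way. Between IMQ + BZLF and IMQ + NS, no member was called higher and 1 (Ptgs2) fell, beside 0.321% and 2.20% of all genes. With an unadjusted p below 0.05 and the same fold limit, 0 members were higher there, and without the fold limit Hpgd alone was. Between IMQ + BZLF and control, 2 members rose (Ptgds and Alox12) and 3 fell (Ptgs1, Alox5 and Alox5ap), beside 9.65% and 10.1%. The median log2 fold change of the 10 members was -0.15, -0.38 and -0.60 in the 3 comparisons, beside 0.054, -0.023 and -0.018 for all genes tested. The 3 comparisons share groups and so are not independent of each other.

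**Figure D1:**
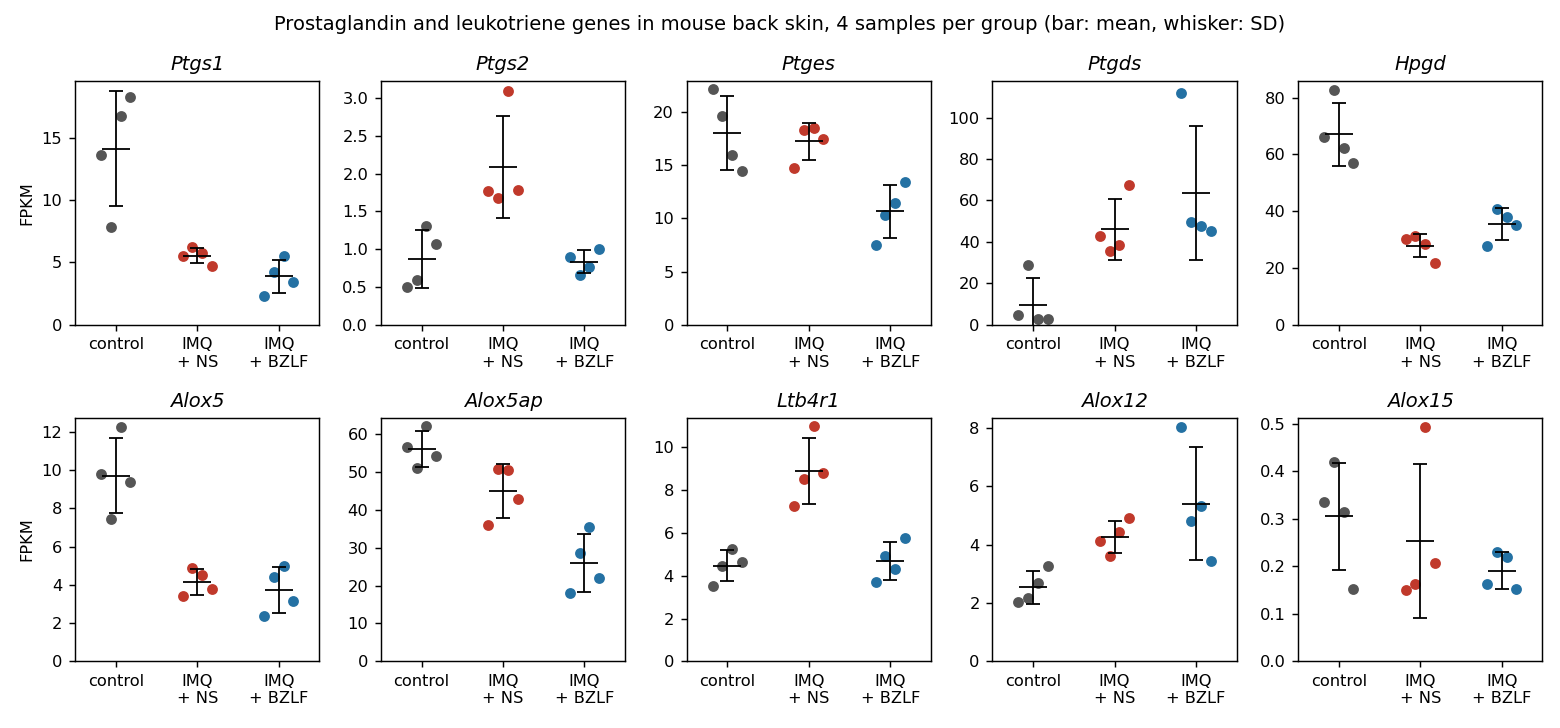
Level of each member in FPKM (vertical axes, linear) in the 12 samples, by group, with the mean (bar) and SD (whisker, cut at 0). Ptgs2 and Ltb4r1 are high in IMQ + NS, Ptgs1, Hpgd and Alox5 are highest in control, and Ptgds is 4.50, 28.6, 2.87 and 2.66 in the controls.

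Ptgs1 encodes cyclooxygenase 1, the form made in most tissues without a stimulus, and lies at chr2:36216742-36258593. It was at 13.6, 7.84, 16.7 and 18.3 FPKM in control replicates 1 to 4. It was at 5.47, 6.21, 5.77 and 4.72 FPKM in IMQ + NS and at 2.33, 4.24, 5.51 and 3.43 FPKM in IMQ + BZLF. Every control was above every IMQ-treated sample, while the IMQ groups overlapped. Ptgs1 fell in IMQ + NS against control, with a log2 fold change of -1.27 ± 0.245 (SE) and an adjusted p of 0.00246 by limma, or 0.393 times the control mean. The decrease was also present in IMQ + BZLF, at -1.83 ± 0.317 with an adjusted p of 0.00168. The difference between the IMQ groups was -0.56 with a 95% interval of -1.07 to -0.053 before adjustment over genes, and its adjusted p was 0.18.

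Ptgs2 encodes cyclooxygenase 2, the form induced in inflammation, and lies at chr1:150100031-150108234, just after the first of the windows printed above. It was at 0.505, 0.589, 1.31 and 1.07 FPKM in controls, 1.77, 1.68, 3.09 and 1.79 FPKM in IMQ + NS, and 0.901, 0.659, 0.767 and 1.01 FPKM in IMQ + BZLF. All 4 IMQ + NS samples were above all 8 others, and the control and IMQ + BZLF samples overlapped. Ptgs2 rose in IMQ + NS by 1.22 ± 0.314 on the log2 scale, with an adjusted p of 0.0104 by limma, or 2.39 times the control mean. It fell in IMQ + BZLF against IMQ + NS by 1.20 ± 0.208, with an adjusted p of 0.0124, to 0.400 times the IMQ + NS mean. An exact two-sided permutation test gave 0.0286 for each of these, the smallest p that 4 against 4 samples allow. IMQ + BZLF differed from control by 0.019 on the log2 scale, with an interval of -0.64 to 0.68. IMQ + NS replicate 3 was highest, and without it the difference between the IMQ groups was -0.998 with an adjusted p of 0.0172, which just missed the fold limit. Since Ptgs2 was low, the size also depends on the constant added before taking logs: with 1 FPKM in place of 0.1, the changes were 0.72 and -0.73 and neither passed the fold limit.

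By level per length, Ptgs1 was above Ptgs2 in every sample. The ratio of the pair within a sample was chosen after the levels were seen and is given as a description. Ptgs1 was 12.7 to 26.9 times Ptgs2 in controls, 1.87 to 3.69 times in IMQ + NS and 2.58 to 7.19 times in IMQ + BZLF. The control range did not overlap with that of either IMQ group, and the IMQ groups overlapped with each other.

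Ptges encodes the inducible prostaglandin E synthase, which acts on the product of the cyclooxygenases, and lies at chr2:30889471-30931020. It was at 22.2, 19.6, 15.9 and 14.5 FPKM in controls, 14.8, 18.3, 18.5 and 17.4 FPKM in IMQ + NS, and 7.49, 10.3, 11.5 and 13.4 FPKM in IMQ + BZLF. Control and IMQ + NS samples overlapped, and every IMQ + BZLF sample was below all 8 others. Ptges was not called in IMQ + NS against control, with a log2 fold change of -0.050 and a 95% interval of -0.38 to 0.28. Its level in IMQ + BZLF was 0.619 times that in IMQ + NS, at -0.71 ± 0.162 with an adjusted p of 0.0351 by limma, which did not reach the fold limit. Against control the value was -0.76 with an adjusted p of 0.0113. Without IMQ + NS replicate 3, the adjusted p between the IMQ groups was 0.0998. The Ptges locus overlaps the non-coding Gm52550 and the pseudogene Gm13400, which were not in the table. Whole spans were compared without regard to strand or exons, so whether its value holds reads of theirs is not known.

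Ptgds encodes the lipocalin-type prostaglandin D synthase, which also binds lipophilic molecules, and lies at chr2:25466709-25470110. It was at 4.50, 28.6, 2.87 and 2.66 FPKM in controls, 42.7, 35.5, 38.4 and 67.4 FPKM in IMQ + NS, and 112, 49.7, 47.8 and 45.1 FPKM in IMQ + BZLF. Every IMQ-treated sample was above every control, control replicate 2 came nearest to them, and IMQ + BZLF replicate 1 was far above the rest of its group. Ptgds rose by 2.96 ± 0.682 on the log2 scale in IMQ + NS (adjusted p = 0.00606, limma) and by 3.36 ± 0.707 in IMQ + BZLF (adjusted p = 0.00426), which is 4.76 times the control mean in IMQ + NS. Without control replicate 2, these values were 3.73 and 4.14. The IMQ groups overlapped and differed by 0.40, with an interval of -0.29 to 1.09.

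Sums of melanocyte and of hair follicle markers moved with Ptgds. The 6 melanocyte markers summed to 46.6, 259, 57.6 and 66.8 FPKM in control replicates 1 to 4, to 202 to 389 FPKM in IMQ + NS, and to 568, 279, 276 and 272 FPKM in IMQ + BZLF. In IMQ + NS 4 of 6 rose (Dct, Tyrp1, Pmel and Tyr), each with some overlap with control. Mlana and Sox10 were not called, at log2 values of 0.42 and -0.26. The 7 hair follicle markers summed to 15.9 to 1590 FPKM in controls, 6511 to 8393 FPKM in IMQ + NS and 7935 to 11400 FPKM in IMQ + BZLF, and all 7 rose in IMQ + NS. Control replicate 2 was the highest control in both lists and in Ptgds, and IMQ + BZLF replicate 1 was the highest of its group in the melanocyte list and in Ptgds. None of these markers was at 0 in all samples of a group. The genes most like Ptgds across the 12 samples were Slc24a4, Oca2 and Trpm1 (Pearson's r of 0.995 each), all known from pigment cells. The part of these cells in the Ptgds values was not tested.

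Hpgd encodes 15-hydroxyprostaglandin dehydrogenase, which inactivates prostaglandins, and lies at chr8:56294552-56321046. It was at 66.2, 82.8, 62.3 and 56.9 FPKM in controls, 30.1, 31.1, 28.3 and 21.9 FPKM in IMQ + NS, and 27.6, 40.8, 37.8 and 35.3 FPKM in IMQ + BZLF. All controls were above all IMQ-treated samples. In IMQ + BZLF, 3 of 4 samples were above the highest IMQ + NS sample. Hpgd fell in IMQ + NS by 1.26 ± 0.145 on the log2 scale, with an adjusted p of 0.000164 by limma, to 0.415 times the control mean. In IMQ + BZLF it was lower than control by a log2 value of -0.92 ± 0.149 (adjusted p = 0.00125), short of the fold limit. The IMQ groups differed by 0.34, with an interval of 0.026 to 0.66 and an adjusted p of 0.188.

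Hpgd relative to Ptgs2, a ratio also chosen after the levels were seen, was 47.5 to 141 in controls, 9.14 to 18.5 in IMQ + NS and 30.7 to 61.8 in IMQ + BZLF. IMQ + NS was below both other groups in every sample, and control and IMQ + BZLF overlapped. Fibroblast markers were lower in IMQ-treated skin alongside Ptgs1 and Hpgd: the 6 markers summed to 13080 to 18640 FPKM in controls, 3681 to 4890 in IMQ + NS and 4286 to 8109 in IMQ + BZLF, with 5 of 6 called lower in IMQ + NS. Of the skeletal muscle and adipocyte markers, 5 of each, 5 and 4 were called lower in IMQ + NS. Of 6 sebaceous gland markers 2 were called lower, while Elovl3 was higher in every IMQ + NS sample than in every control (log2 value of 0.93, adjusted p = 0.00511 by limma, under the fold limit). The part of these cells in the Ptgs1 and Hpgd values was not tested.

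**Figure D2:**
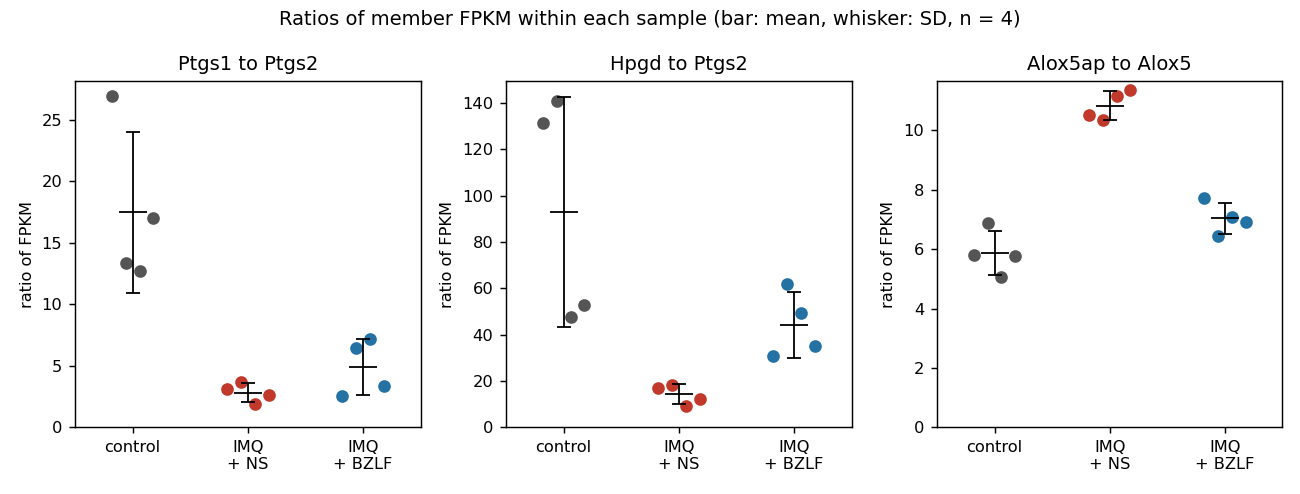
Ratios of member levels in FPKM within each sample (vertical axes, linear) for Ptgs1 to Ptgs2, Hpgd to Ptgs2 and Alox5ap to Alox5, with the mean (bar) and SD (whisker) of 4 samples a group. Both ratios to Ptgs2 have their lowest mean in IMQ + NS, and Alox5ap to Alox5 is highest there, at 10.4 to 11.3.

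Alox5 encodes 5-lipoxygenase, the enzyme that starts leukotriene synthesis, and lies at chr6:116410071-116461178. It was at 9.78, 7.43, 12.2 and 9.40 FPKM in controls, 3.42, 4.89, 4.52 and 3.77 FPKM in IMQ + NS, and 2.35, 4.43, 5.0 and 3.16 FPKM in IMQ + BZLF. All controls were above all IMQ-treated samples, and the IMQ groups overlapped. Alox5 fell by 1.20 ± 0.171 on the log2 scale in IMQ + NS (adjusted p = 5e-04, limma), to 0.427 times the control mean, and by 1.39 ± 0.244 in IMQ + BZLF (adjusted p = 0.00181). Between the IMQ groups the difference was -0.19, with an interval of -0.70 to 0.32. The non-coding Gm38880 overlaps most of the Alox5 locus and was not in the table. Strand and exons were not compared, so whether the Alox5 value holds some of its reads is not known.

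Alox5ap encodes the protein that presents arachidonic acid to 5-lipoxygenase, and lies at chr5:149265004-149288153. It was at 56.6, 51.0, 62.0 and 54.3 FPKM in controls, 35.9, 50.7, 50.4 and 42.7 FPKM in IMQ + NS, and 18.1, 28.6, 35.4 and 21.9 FPKM in IMQ + BZLF. The 3 groups did not overlap, and the lowest control and the highest IMQ + NS sample were close, at 51.0 and 50.7 FPKM. Alox5ap was 0.802 times the control mean in IMQ + NS, with a log2 value of -0.33 ± 0.122 and an adjusted p of 0.0459 by limma, well under the fold limit. In IMQ + BZLF it was 0.579 times the IMQ + NS mean (-0.82 ± 0.200, adjusted p = 0.0448), also under the fold limit. Against control it fell in IMQ + BZLF by 1.15 ± 0.190, with an adjusted p of 0.00139, and without IMQ + BZLF replicate 1 the value was -0.99, just under the limit. Without that replicate the adjusted p between the IMQ groups was 0.06, and without IMQ + NS replicate 3 it was 0.127.

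Alox5ap was 5.07 to 6.87 times Alox5 in controls, 10.4 to 11.3 times in IMQ + NS and 6.45 to 7.71 times in IMQ + BZLF. IMQ + NS did not overlap with either other group in this ratio, which was chosen after the levels were seen. The sum of monocyte and macrophage markers was also lowest in IMQ + BZLF: the 10 markers summed to 909 to 1346 FPKM in controls, 636 to 907 in IMQ + NS and 423 to 627 in IMQ + BZLF. The markers did not all follow the sum. Cd163 fell in IMQ + NS against control and had a mean of 13.9 FPKM there and 16.1 FPKM in IMQ + BZLF. Adgre1, the F4/80 antigen of macrophages, had a control mean of 28.6 FPKM, an IMQ + NS mean of 46.0 FPKM and an IMQ + BZLF mean of 18.1 FPKM, and fell between the IMQ groups. No other marker of the list was called in IMQ + NS against control or between the IMQ groups. In IMQ + BZLF against control 3 of the 10 were called lower, and the median log2 fold change of the list was -0.92. The 8 mast cell markers summed to 202 to 342 FPKM in controls, 140 to 201 in IMQ + NS and 104 to 193 in IMQ + BZLF, with 3 of 8 called lower and 1 higher in IMQ + NS. No marker of either list was at 0 in all samples of a group. The part of these cells in the Alox5 and Alox5ap values was not tested.

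Ltb4r1 encodes the high-affinity receptor of leukotriene B4, found on neutrophils and other white cells, and lies at chr14:55765962-55768492, directly after the second window printed above. It was at 3.52, 4.46, 5.25 and 4.63 FPKM in controls, 7.25, 8.51, 11.0 and 8.81 FPKM in IMQ + NS, and 3.70, 4.92, 4.31 and 5.77 FPKM in IMQ + BZLF. Every IMQ + NS sample was above all 8 others, and control and IMQ + BZLF overlapped. The IMQ + NS mean was 1.99 times the control mean, with a log2 value of 0.98 ± 0.159 and an adjusted p of 0.000984 by limma, just short of the fold limit. It passed that limit without control replicate 3 (1.06) or without IMQ + NS replicate 1 (1.07). IMQ + BZLF was 0.526 times IMQ + NS, at -0.92 ± 0.156 with an adjusted p of 0.0118, and passed the limit without IMQ + NS replicate 1 (-1.01) or IMQ + BZLF replicate 4 (-1.02). Against control, IMQ + BZLF differed by 0.061, with an interval of -0.32 to 0.44.

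Neutrophil markers were also highest in IMQ + NS. The 10 markers summed to 47.6 to 72.6 FPKM in controls, 3155 to 9937 FPKM in IMQ + NS and 70.8 to 94.2 FPKM in IMQ + BZLF. In IMQ + NS 9 of 10 rose, and in IMQ + BZLF against IMQ + NS all 10 fell. Most of the sum in IMQ + NS was S100a8 and S100a9, with means of 3010 and 2909 FPKM, which keratinocytes are also known to make in inflamed skin. In IMQ + BZLF against control the median log2 fold change of the 10 markers was 0.15. There S100a8 rose, Mmp9 and Retnlg fell, and 7 were not called. None of the 10 was at 0 in all samples of a group. Among the genes most like Ltb4r1 across the 12 samples were Cd300lf (r of 0.971) and Csf3r, the receptor of granulocyte colony-stimulating factor (0.965). Keratinocyte markers were also highest in IMQ + NS, at 4803 to 7614 FPKM against 2168 to 3715 in IMQ + BZLF, with 5 of 6 called higher against control and 1 lower in IMQ + BZLF against IMQ + NS. The part of either cell type in the Ltb4r1 and Ptgs2 values was not tested.

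**Figure D3:**
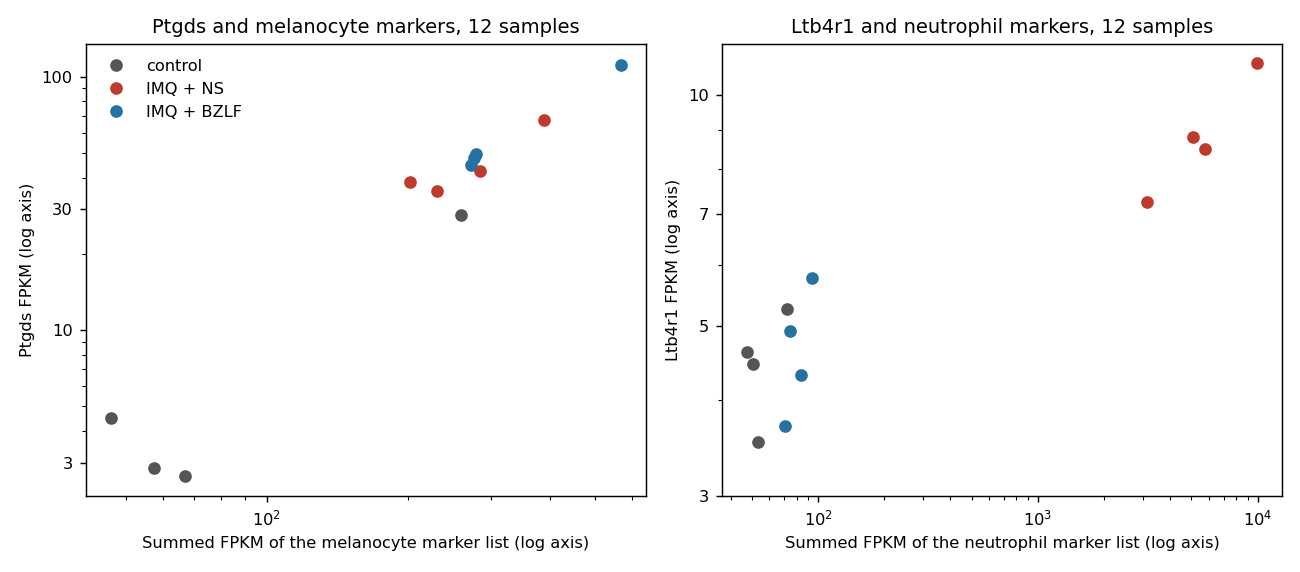
Ptgds against the summed melanocyte markers and Ltb4r1 against the summed neutrophil markers, in FPKM on log axes, where each point is 1 of the 12 samples coloured by group. IMQ + NS lies at 3155 to 9937 FPKM of neutrophil markers with all other samples below 100 FPKM, and 1 control (replicate 2, at 259 FPKM of melanocyte markers) lies near the IMQ-treated samples.

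Alox12 encodes the platelet-type 12-lipoxygenase, which is also made in the epidermis, and lies at chr11:70241457-70255380. It was at 2.04, 2.16, 2.68 and 3.26 FPKM in controls, 4.13, 3.60, 4.45 and 4.91 FPKM in IMQ + NS, and 8.05, 4.83, 5.33 and 3.43 FPKM in IMQ + BZLF. Every IMQ-treated sample was above every control, and the IMQ groups overlapped. The log2 value in IMQ + NS was 0.75 ± 0.168 (adjusted p = 0.00549, limma), under the fold limit, or 1.69 times the control mean. In IMQ + BZLF Alox12 rose by 1.02 ± 0.255 (adjusted p = 0.0096). That call was lost without control replicate 1 (0.93), control replicate 2 (0.96) or IMQ + BZLF replicate 1 (0.81), each time on the fold limit. The IMQ groups differed by 0.28, with an interval of -0.23 to 0.78. The 5 platelet markers summed to 157 to 187 FPKM in controls, 42.3 to 74.0 in IMQ + NS and 39.1 to 72.2 in IMQ + BZLF. Most of that sum was Pf4, the only one of the 3 tested that fell in IMQ + NS, while Ppbp and Itga2b were not called. The non-coding Gm40191 overlaps the whole Alox12 locus and was not in the table.

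Alox15 encodes the 12/15-lipoxygenase of macrophages and eosinophils, and lies at chr11:70344147-70390538, where it overlaps the pseudogene Gm12312. It was the lowest member, at 0.336, 0.419, 0.314 and 0.152 FPKM in controls, 0.150, 0.162, 0.493 and 0.207 FPKM in IMQ + NS, and 0.163, 0.230, 0.220 and 0.152 FPKM in IMQ + BZLF. All 3 groups overlapped. No difference was called: the interval was -1.01 to 0.52 for IMQ + NS against control and -0.85 to 0.46 for IMQ + BZLF against IMQ + NS, so changes of up to about the fold limit were not detectable. Eosinophil markers were low as well, with sums of 0.610 to 1.30 FPKM in controls, 0.864 to 2.73 in IMQ + NS and 0.753 to 3.2 in IMQ + BZLF. Of their 6 genes, 4 were tested and 2 rose in IMQ + NS, and Prg2, a defining granule protein, was listed at 0 in all 4 controls.

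**Figure D4:**
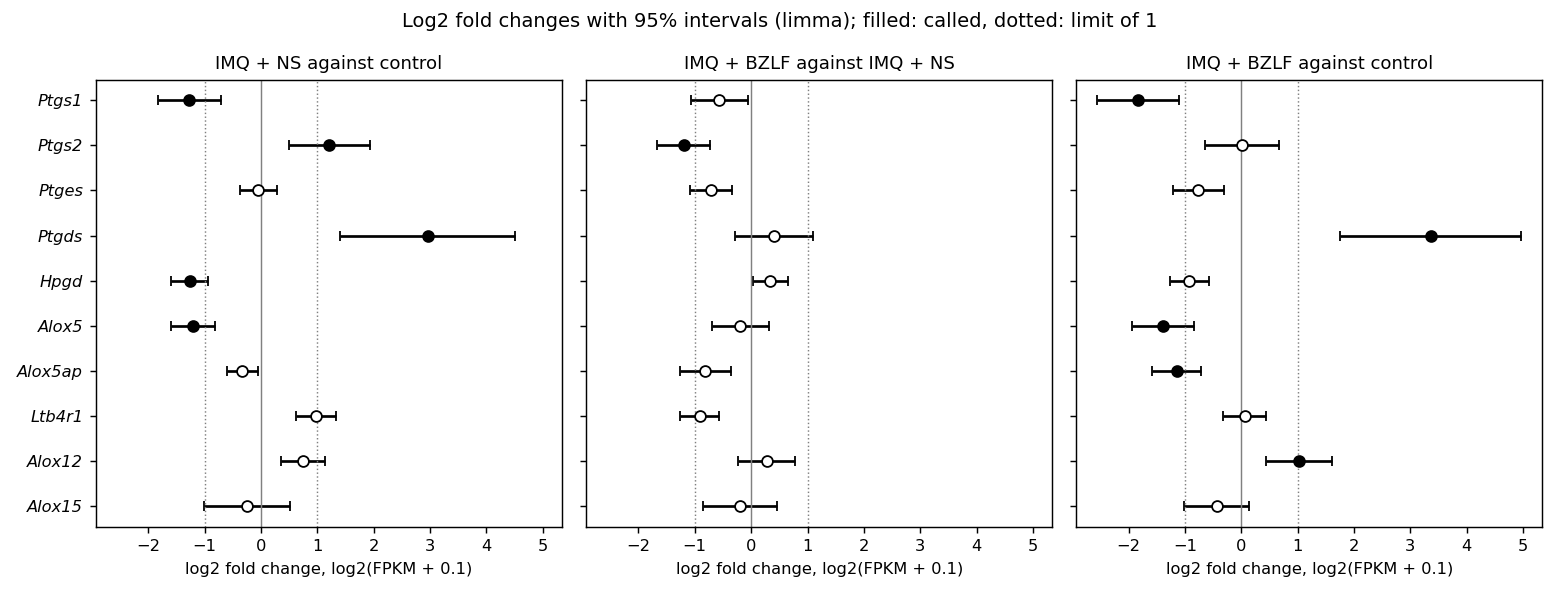
Log2 fold change of each member on log2(FPKM + 0.1) with its 95% interval (horizontal axis) in the 3 comparisons, where filled points are called (limma, adjusted p below 0.05 and past 1 in size). Between IMQ + BZLF and IMQ + NS only Ptgs2 is filled, and Ltb4r1, Alox5ap and Ptges lie between -0.92 and -0.71.

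Of 53 other genes of the pathway, listed by role, 51 were in the table and 50 were tested. Pla2g10 and Ptgr3 were not analysed here. In IMQ + NS against control 12 rose and 9 fell, in IMQ + BZLF against IMQ + NS none was called higher and 4 fell, and in IMQ + BZLF against control 6 rose and 11 fell. The medians were -0.10, -0.14 and -0.48. The counts in IMQ + NS stand beside the same background of 11.4% and 11.0% of all genes, and the 4 lower genes beside 2.20%. The 6 higher and 11 lower genes in IMQ + BZLF against control stand beside 9.65% and 10.1%. At an unadjusted p below 0.05 by limma, 6 pathway genes were higher in IMQ + BZLF than in IMQ + NS, and 0 of them passed the fold limit.

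The step that frees arachidonic acid held 6 of the 12 genes that rose and 3 of the 9 that fell, of 13 tested. Pla2g4b, a cytosolic phospholipase A2, was at 0.713, 1.76, 0.769 and 0.641 FPKM in controls and 14.0 to 17.6 FPKM in IMQ + NS. This was a log2 rise of 4.03 (adjusted p = 1.04e-05, limma). Like Ptgds, Pla2g4b was highest among controls in replicate 2, and without that sample the rise was 4.34. Pla2g4b was at 12.5 to 18.4 FPKM in IMQ + BZLF, which overlapped with IMQ + NS. Pla2g4e, a relative in the same family, was at 4.25 to 5.70 FPKM in controls, 11.6 to 20.6 in IMQ + NS and 3.65 to 5.25 in IMQ + BZLF. It rose by 1.57 (adjusted p = 0.000165) and fell by 1.57 (adjusted p = 0.00279), so that control and IMQ + BZLF overlapped. Pla2g4d was listed at 0 in all 4 controls, was at 0.580, 0.950, 1.80 and 0.669 FPKM in IMQ + NS, and was at 0.00706 and 0.0596 FPKM in 2 IMQ + BZLF samples and 0 in the other 2. It was called in both comparisons, and no fold is given against a group at 0. Pla2g5, a secreted phospholipase, was at 5.37 to 11.6 FPKM in controls and 0.326 to 0.706 FPKM in IMQ + NS, and fell by 3.66 (adjusted p = 1.78e-05).

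Among 8 prostanoid synthases beyond the members, 1 fell in IMQ + NS and none was called in IMQ + BZLF against IMQ + NS. It was Ptgis, the prostacyclin synthase, at 0.857 to 5.20 FPKM in controls and 0.213 to 0.857 FPKM in IMQ + NS, with a log2 change of -2.29 (adjusted p = 0.00645, limma). Control replicate 2 held the lowest of the control values, and without it the change was -2.79. Of 4 genes of uptake, export and breakdown, Abcc4, a prostaglandin exporter, fell by 1.5 (adjusted p = 0.000331), from 5.29 to 9.83 FPKM in controls to 2.37 to 2.98 in IMQ + NS. Of 8 prostanoid receptors tested, 2 fell in IMQ + NS. Ptger3, a prostaglandin E2 receptor, was at 23.6 to 61.3 FPKM in controls, 8.22 to 9.02 in IMQ + NS and 7.21 to 9.30 in IMQ + BZLF, and fell by 2.27 in IMQ + NS (adjusted p = 0.000155). Ptgfr, the receptor of prostaglandin F2 alpha, fell by 1.55 (adjusted p = 1.3e-05). None of these genes was called between the IMQ groups.

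Of 9 other leukotriene synthesis and breakdown genes, 3 rose and 1 fell in IMQ + NS. Ltc4s, the leukotriene C4 synthase, was at 15.4 to 29.4 FPKM in controls and 5.35 to 9.87 in IMQ + NS, and fell by 1.65 (adjusted p = 0.000528, limma). Ggt1, which trims glutathione from leukotriene C4, was at 0.109, 4.88, 0.101 and 0.0203 FPKM in controls and 10.1 to 13.7 FPKM in IMQ + NS, a rise of 4.89 (adjusted p = 0.00383) that was 6.10 without control replicate 2. Like Ptgds, Ggt1 was highest among controls in replicate 2. Cyp4f18, which breaks down leukotriene B4 in neutrophils, was at 0.511 to 0.623 FPKM in controls, 0.706, 1.17, 4.27 and 2.30 FPKM in IMQ + NS and 0.0542 to 0.444 FPKM in IMQ + BZLF. It rose by 1.48 (adjusted p = 0.023) and fell by 2.36 (adjusted p = 0.0399). Leaving out 1 sample ended the call between the IMQ groups in 7 of 8 fits, all but the one without IMQ + NS replicate 1, with adjusted p from 0.0577 to 0.103. The rise in IMQ + NS was lost without control replicate 3 (adjusted p = 0.0529) or IMQ + NS replicate 4 (0.0631).

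The receptors of leukotrienes and lipoxins held 4 tested genes beside Ltb4r1, of which 2 rose in IMQ + NS. Ltb4r2, the second leukotriene B4 receptor, was at 1.72 to 2.03 FPKM in controls, 4.25 to 5.13 in IMQ + NS and 2.49 to 3.05 in IMQ + BZLF, with no overlap among the 3 groups. It rose by 1.24 (adjusted p = 4.26e-05, limma), and its value between the IMQ groups was -0.74 (adjusted p = 0.00394), under the fold limit. Fpr2, a formyl peptide and lipoxin receptor of white cells, was at 0.835 to 2.33 FPKM in controls, 4.68 to 11.3 in IMQ + NS and 0.596 to 1.25 in IMQ + BZLF. It rose by 2.30 (adjusted p = 0.000672) and fell by 2.92 (adjusted p = 0.00151), alongside the neutrophil markers given above.

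Of 4 other lipoxygenases, Alox8 rose and Alox12e fell in IMQ + NS. Alox8 was at 0.199, 2.28, 0.234 and 0.299 FPKM in controls, 20.2 to 29.2 in IMQ + NS and 18.5 to 34.2 in IMQ + BZLF, a rise of 5.52 (adjusted p = 0.000122, limma) that was 6.22 without control replicate 2. Control replicate 2 was again the highest control, as for Ptgds, Pla2g4b and Ggt1. Alox12e, an epidermal lipoxygenase, was at 24.5 to 39.2 FPKM in controls, 6.01 to 14.3 in IMQ + NS and 10.9 to 17.5 in IMQ + BZLF, and fell by 1.87 (adjusted p = 0.000546). Neither was called between the IMQ groups.

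**Figure D5:**
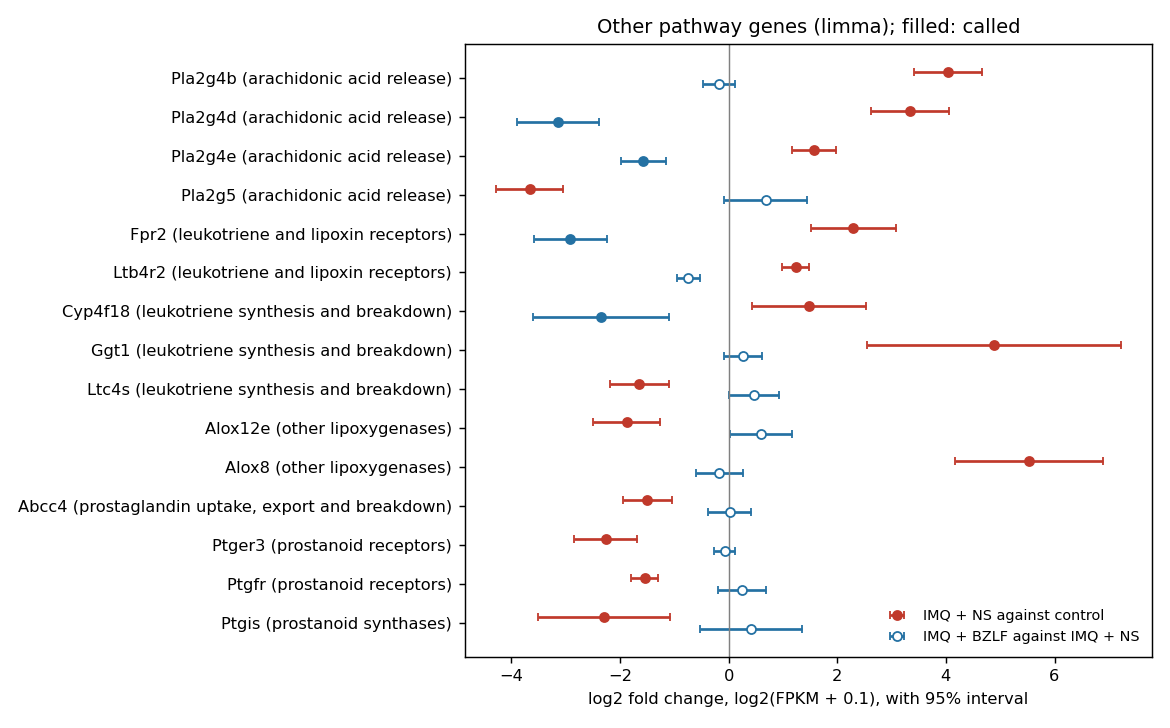
Log2 fold change with its 95% interval (horizontal axis) of the named genes of the pathway outside the 10 members, for IMQ + NS against control and IMQ + BZLF against IMQ + NS, where filled points are called (limma). Pla2g4d, Pla2g4e, Cyp4f18 and Fpr2 are filled in both, and the fitted size for Pla2g4d depends on the constant added because its controls are at 0.

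For each member with a mean of at least 1 FPKM, the 3 genes with the most similar levels over the 12 samples were taken from 12656 genes, by Pearson's r of log2(FPKM + 0.1). These values are descriptions, since the points share the 3 groups. They were Ppfia4, Tmem43 and Mef2a for Ptgs1 (0.985 to 0.982), and Slc6a8, Tlcd3a and Ier3, an immediate early gene, for Ptgs2 (0.944 to 0.931). Ptges was most like Snx20, Rgs19 and Csf2ra, the receptor of granulocyte-macrophage colony-stimulating factor (0.975 to 0.954). Alox5ap was most like Jak3, a kinase of cytokine receptors in white cells, Arhgap9 and Fxyd5 (0.982 to 0.970). Alox5 was most like Tor3a, Itm2c and Snx8 (0.982 to 0.980), and Hpgd was most like Traf5, Spg20 and Fkbp14 (0.982 to 0.979). Alox12 was most like Gpnmb, a glycoprotein of pigment cells and macrophages (0.972), then Abtb2 and Zfyve26 (0.931 each). For Ltb4r1 the third gene was Gk (0.965). Alox15, with a mean below 1 FPKM, was not compared.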

How the data were processed

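Total RNA of mouse back skin was sequenced by the authors in 12 samples, 4 a group. The deposited table holds FPKM per gene and sample. Per the study's methods, reads were aligned with Bowtie2 and quantified with eXpress, and DESeq2 was used for the comparisons, whereas the submitters' processing notes name fastp, HISAT2, HTSeq, R 3.2.0 and mm10. The RNA extraction and library kits named in the methods also differ from those in the labels. Read counts were not used here, so no count model was fitted. Among 785 genes seen in few samples, 93.5% of 1348 ratios of low values to the lowest were whole to within 0.02 of the whole number, after scaling by a factor per sample, which gave relative depth. Total depth is unknown, so intervals are from the spread between samples.

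Groups came from the labels. For each pair of groups, limma 3.58.1 (R 4.3.3) was fitted to log2(FPKM + 0.1) of the 8 samples with a trend in variance, on genes with a mean of at least 0.1 FPKM, with Benjamini-Hochberg adjustment over 15288 genes. Fold changes are on that scale, which understates the change of low genes. Single genes were also tested by exact permutation of 70 assignments. Tests were tested on simulated data. Figures used Python 3.11.15 and matplotlib 3.10.9. The members and lists were chosen with earlier results of these data known. Named were all 10 members, pathway genes called in IMQ + BZLF against IMQ + NS, and, per pathway list, up to 2 genes with the largest change in IMQ + NS among those called with a mean of at least 1 FPKM. Marker lists of 13 cell types or tissues were summed. The alternatives were other constants (0.01 and 1), filters, scalings and fits, a replicate block, no fold limit and leaving out each sample. The replicate numbers came from the labels, and same-numbered samples did not all deviate together (r from -0.152 to 0.26, over 0.1 for replicates 3 and 4 but not for 1 and 2), so they were not treated as pairs.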

Additional observations from a re-analysis of the deposited data

Results flagged for a closer look

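In the groups of 4 samples, the highest or lowest sample of each member was compared with the rest on the log2 scale. Of 30 such groups (10 members in 3 groups), 2 held a sample far from the others, and chance gives about 1 in 20. Ptgs2 was 3.094 FPKM in IMQ + NS replicate 3, where the other 3 samples of the group were at 1.68 to 1.79 FPKM, a gap of 0.9 of the whole range. Ptgds was 111.9 FPKM in IMQ + BZLF replicate 1, where the other 3 were at 45.1 to 49.7 FPKM, a gap of 0.892 of the range. Without these samples, the difference between IMQ + BZLF and IMQ + NS was -0.998 for Ptgs2 and 0.093 for Ptgds on the log2 scale, against -1.20 and 0.40 with all samples.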

How the results depend on the processing

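No value of a member or named pathway gene that was called changed direction under any alternative run. Of the values of single members under alternatives, 546 kept their side of the threshold, 12 newly passed it and 9 no longer did, and for named pathway genes the numbers were 828, 3 and 18. For members, each of the 9 lost calls was lost on the fold limit, while 14 of the 18 for pathway genes were lost on the adjusted p, 13 of them for Cyp4f18. Without the fold limit, members called in IMQ + NS against control were 4 higher (with it, 2) and 4 lower (3). There were 4 lower (1) in IMQ + BZLF against IMQ + NS and 5 lower (3) in IMQ + BZLF against control. Of all 15288 genes, 4427 were higher and 4142 lower without the limit in IMQ + NS against control. In IMQ + BZLF 791 of all genes were lower than in IMQ + NS, and 3640 were higher and 4458 lower than in control. For pathway genes, the counts without that limit were 18 higher (12) and 18 lower (9) in IMQ + NS against control. They were 8 lower (4) in IMQ + BZLF against IMQ + NS, and 10 higher (6) and 20 lower (11) in IMQ + BZLF against control. With a constant of 1 FPKM, members called were 1 higher in IMQ + NS against control and 0 lower in IMQ + BZLF against IMQ + NS. In IMQ + BZLF against control 1 member was higher. Calls over all genes also became fewer with that constant. There were 1168 higher (1740 in the main fit) in IMQ + NS against control and 979 higher (1475) in IMQ + BZLF against control. In IMQ + BZLF against IMQ + NS 188 of all genes were lower (336). There 2 pathway genes were lower, and Pla2g4d was at -0.94. A filter at a mean of at least 1 FPKM left 2 pathway genes lower in IMQ + BZLF against IMQ + NS, beside 236 of 12657 genes. Under that filter Pla2g4d and Cyp4f18, with means of 0.339 and 0.984 FPKM over the 12 samples, were not tested. Quantile normalization gave 1 member higher in IMQ + BZLF against control, as Alox12 was at 0.94, beside 1391 of all genes. It put the median of all genes at -0.065 in IMQ + NS against control, where it was 0.054 in the main scale. Leaving out each sample in turn gave 0 to 2 members lower in IMQ + BZLF against IMQ + NS, beside 227 to 350 of all genes. It gave 1 to 2 members higher in IMQ + BZLF against control, beside 1267 to 1939 of all genes. In IMQ + BZLF against IMQ + NS 0 to 1 pathway genes were higher, beside 19 to 78 of all genes, the 1 being Pla2g2d without IMQ + BZLF replicate 1. The count of 0 members lower in IMQ + BZLF against IMQ + NS came without IMQ + NS replicate 3. With a replicate block, the counts of members were the same (2 higher and 3 lower, 0 and 1, 2 and 3), as were those of pathway genes (12 and 9, 0 and 4, 6 and 11). Those of all genes were then 1730 and 1684, 47 and 335, and 1457 and 1527. Cyp4f18 between the IMQ groups was also lost with constants of 0.01 and 1, no filter and no trend (adjusted p by limma 0.0513, 0.0603, 0.0866 and 0.0651). The cause of these changes was not tested beyond the settings themselves. Total depth is unknown, so its limit on low genes such as Alox15 cannot be given. The counts for pathway genes under alternatives were added after seeing the data.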
